A study of Mus musculus with 90 samples.

Results

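The transcripts of 42 DNA replication genes were followed across 38 groups of cultured mouse bone marrow cells, in a table that held 24543 genes and 90 libraries. The 42 genes were picked by name for their part in S phase and not by a cut on a measured value. Earlier results of these data were known when they were picked. Each was found once in the table. They cover origin licensing (Orc1, Orc6, Cdc6, Cdt1 and Mcm2 to Mcm7), helicase activation (Mcm10, Cdc45 and Gins1 to Gins4), the polymerases and primase (Pola1, Pola2, Prim1, Prim2, Pold1, Pole and Pole2), and the sliding clamp with its loader and partners (Pcna, Rfc2 to Rfc5, Rpa2, Fen1 and Lig1). The remaining members supply deoxynucleotides (Rrm1, Rrm2, Tyms, Tk1 and Dut), assemble chromatin and maintain its methylation behind the fork (Chaf1a, Chaf1b and Uhrf1), or encode the E cyclins and their transcription factor (Ccne1, Ccne2 and E2f1).

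The study asked what loss of IRF8, a transcription factor of the monocyte lineage, does to the making of osteoclasts, the multinucleated cells that resorb bone. In a first experiment of 17 libraries, bone marrow-derived macrophages (BMMs) of Irf8+/+ mice (WT) and Irf8-/- mice (KO) were grown with the growth factor MCSF alone (day 0) or with MCSF and the osteoclast-inducing cytokine RANKL (day 4 and day 8). In a second experiment of 33 libraries, Irf8-/- BMMs were transduced with human IRF8 as hIRF8WT, with the variant hIRF8G388S or with hIRF8379-389, and were sampled at the same days beside cells labelled mock, whose Irf8 genotype is not given separately. In the last experiment of 40 libraries, macrophages labelled mock or with the same constructs were left untreated, treated with the cytokine IFNg, or treated with IFNg and then bacterial LPS for 1, 4 or 8 h. Cells of male and female mice were used, the vector and promoter of the constructs are not given in the labels, and every group had 2 or 3 libraries. The labels do not say whether these were separate animals, so p-values measure the spread between libraries, which may be technical.

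Before a cell copies its genome, the origin recognition complex, Cdc6 and Cdt1 load the Mcm2 to Mcm7 helicase onto origins. Cyclin E with its kinase, Cdc45 and the GINS complex then turn the helicase on, and the polymerases follow on a Pcna clamp. Most of these genes are known to be transcribed at the entry into S phase under E2F factors, so their summed transcripts are commonly read as a sign of cycling cells. Macrophage precursors divide under MCSF, and the fusion of precursors into osteoclasts follows exit from the cycle.

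Because the members moved together in several comparisons, the 250 bases before a RefSeq start of 3 of them are shown, on build GRCm38.p6. Mcm6 and Mcm7 were the members with the highest mean RPKM that hold an E2F word, and Pcna was the member with the highest mean RPKM that holds none. Letters in capitals mark an E2F word in either orientation, and all 3 genes lie on the minus strand, at chr1:128359706-128359955, chr5:138171884-138172133 and chr2:132253181-132253430 in this order.
Mcm6: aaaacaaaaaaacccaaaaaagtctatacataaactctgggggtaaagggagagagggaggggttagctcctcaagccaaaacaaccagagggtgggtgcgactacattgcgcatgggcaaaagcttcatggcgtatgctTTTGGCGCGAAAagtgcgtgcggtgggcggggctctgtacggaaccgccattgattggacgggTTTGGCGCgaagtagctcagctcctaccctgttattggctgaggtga
Mcm7: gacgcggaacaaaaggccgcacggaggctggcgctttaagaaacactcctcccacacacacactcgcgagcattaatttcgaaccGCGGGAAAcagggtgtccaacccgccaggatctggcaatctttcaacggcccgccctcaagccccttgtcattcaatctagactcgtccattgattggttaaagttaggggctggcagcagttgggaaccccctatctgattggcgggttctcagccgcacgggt
Pcna: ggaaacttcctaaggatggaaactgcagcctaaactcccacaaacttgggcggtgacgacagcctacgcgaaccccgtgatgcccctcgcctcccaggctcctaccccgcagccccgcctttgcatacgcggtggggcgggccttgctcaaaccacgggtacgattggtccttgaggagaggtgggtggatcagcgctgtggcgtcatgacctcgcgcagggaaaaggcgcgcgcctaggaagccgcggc
The capitals in Mcm6 hold 3 words, of which 2 overlap, starting 110, 106 and 47 bases before the RefSeq start. The printed stretch of Mcm7 holds 1 word, 165 bases before the RefSeq start used. RefSeq lists another Mcm7 promoter, at chr5:138171217-138171516, which holds 0 E2F words. In the GENCODE gene model Mcm7 spans chr5:138164583-138172422, so the printed stretch lies inside that model, and the stretch of Pcna lies partly inside its model, which ends at 132253314.

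The E2F words searched were TTTGGCGC, TTTCGCGC and TTTCCCGC on both strands, from 250 bases before to 50 after the start. RefSeq promoters were found for 34 of the 42 members, not for Gins1, Gins2, Gins4, Mcm4, Pole, Prim2, Rfc2 and Ccne2. Where RefSeq lists several promoters for a gene, as for Mcm7, Uhrf1, Fen1 and Lig1, a word in any of them was counted. At least 1 E2F word stood in 14 of the 34 (41.2%) and in 573 of all 27025 genes with a listed promoter (2.12%). By role, it stood in 7 of 9 licensing genes, 3 of 5 polymerase and primase genes, 1 of 3 helicase genes, 2 of 7 clamp genes, 1 of 3 chromatin genes, 0 of 5 deoxynucleotide genes and 0 of 2 of the cyclin and E2f1 group. The word CCAAT, searched on both strands, stood in 19 of 34 (55.9%) against 41.1% of all genes with a listed promoter. The CHR word TTTGAA, known from mitosis genes, stood in 4 of 34 (11.8%) against 20.2%. A match is a run of letters, and binding of a factor was not measured here.

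Values are RPKM, reads per kilobase of transcript and per 1e6 mapped reads, as deposited, and differences are on the log2(RPKM + 1) scale, which understates the change of low genes. Depth, in units of 1e6 alignments, ran from 15.6 to 122 with a median of 41.1, except for replicate 1 of the untreated hIRF8WT macrophages, which had 0.218. The Irf8 row read 69.1 to 74 RPKM in the WT libraries and 32.5 to 34.2 in the KO libraries at day 0. It read 17.1 to 27.1 against 5.92 to 8.97 at day 4 and 7.43 to 12 against 6.22 to 7.08 at day 8. The KO libraries lay below the WT libraries at each day without reaching 0, and the labels do not give the deleted part of the gene. In the transduced day 0 cells Irf8 read 18.3 to 24 RPKM in mock and 47.4 to 73.6 with the constructs, whereas in untreated macrophages it read 68.5 to 77.5 in mock, 59.5 to 64.1 in 5 of the construct libraries and 146 in the shallow library. Summed RPKM of osteoclast markers was 11.5 to 20.4 in the WT and KO day 0 libraries and 12546 to 47139 in their later libraries.

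**Figure D1:**
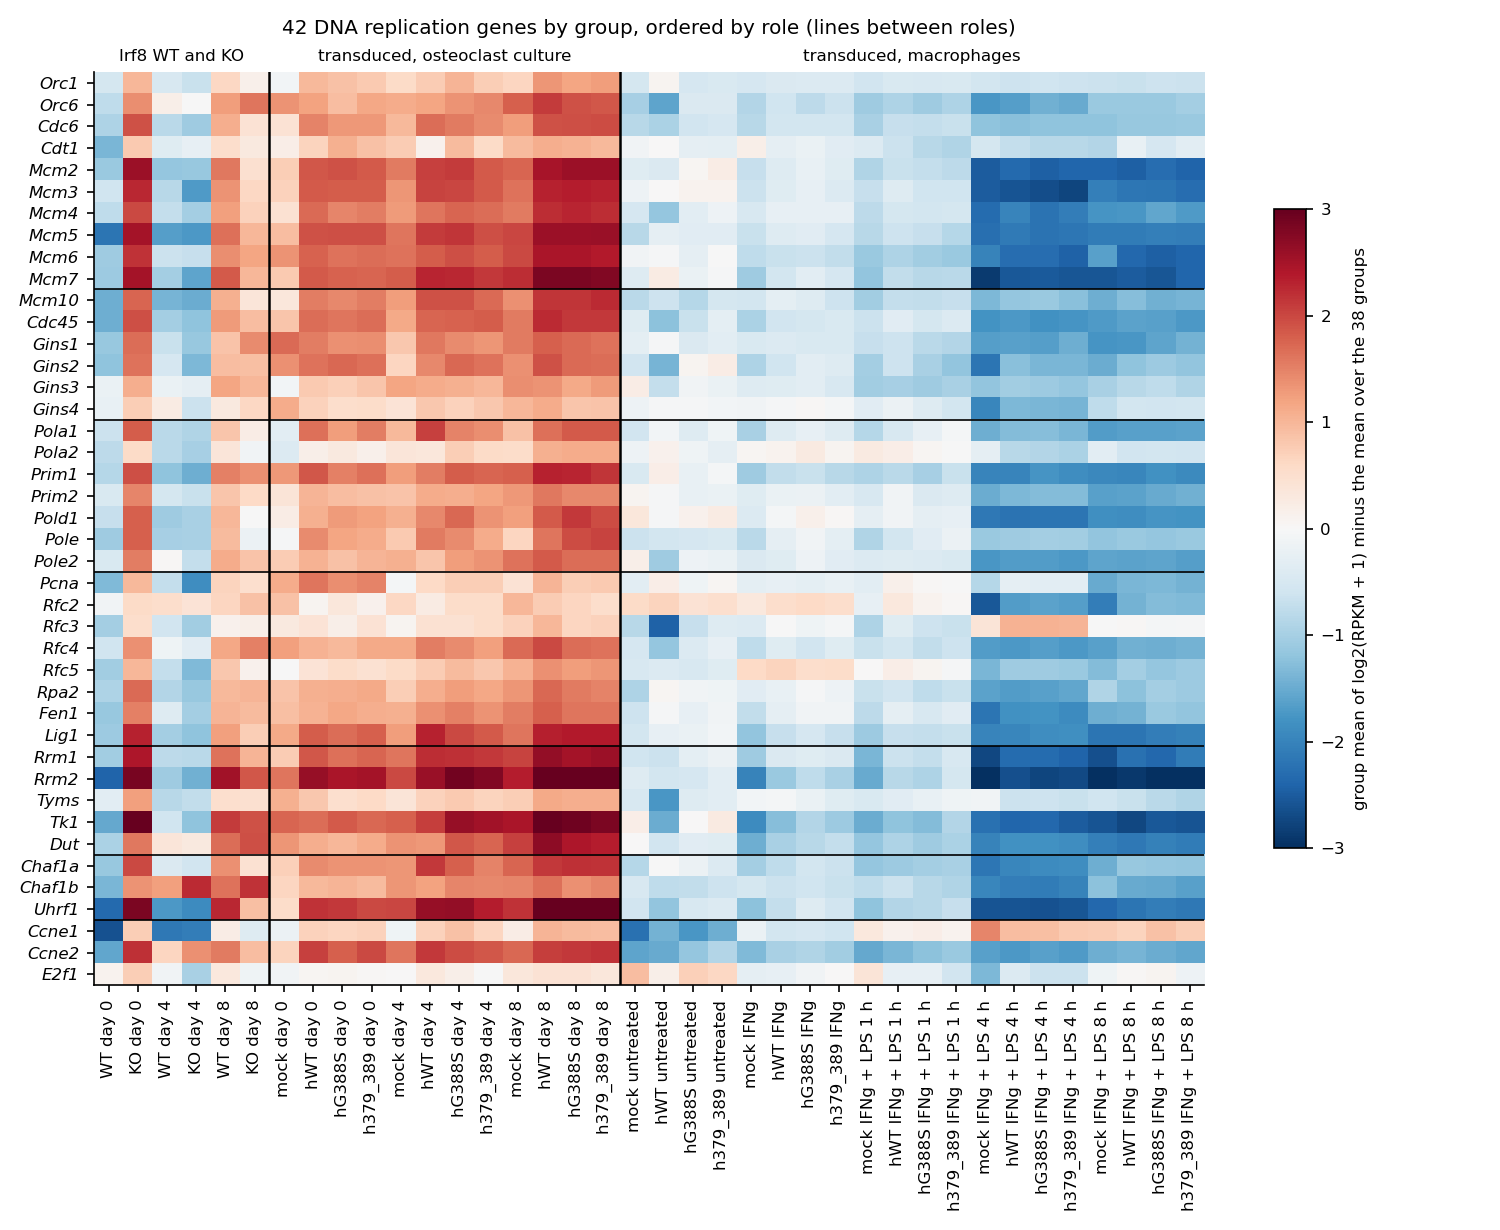
Heat map of the 42 genes (vertical axis, by role) in the 38 groups (horizontal axis), coloured by the group mean of log2(RPKM + 1) minus the gene's mean over all groups. The KO day 0 column is red and the WT day 0 column blue for nearly all genes, and the macrophages treated with LPS for 4 or 8 h are mostly blue, with Ccne1 red at both times and Rfc3 red at 4 h.

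Each of the 42 listed replication genes was higher in KO than in WT cells at day 0, before any RANKL. The 42 members together made up 206 to 215 RPKM in the WT libraries and 1442 to 1458 RPKM in the KO libraries. By limma with Benjamini-Hochberg adjustment over 11530 genes, all 42 passed upward at an adjusted p of 0.05, against 26.5% of all genes tested. The median log2 difference of the members was 2.74, and that of all genes tested was 0.12. In these bulk samples a larger share of cells in S phase and more RNA of these genes per cell cannot be told apart.

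The size of the day 0 difference varied with the gene. Rrm2, the small subunit of ribonucleotide reductase, read 1.10, 0.806 and 0.669 RPKM in WT and 71, 69.7 and 70.1 in KO. All KO libraries lay far above all WT libraries, and its log2 difference of 5.27 (SE 0.17, adjusted p = 1.64e-11) was the largest of the members. Uhrf1, which brings the maintenance DNA methyltransferase to newly copied DNA, read 0.600, 0.486 and 0.365 RPKM in WT and 50.5, 52.1 and 51.1 in KO, a log2 difference of 5.14 (SE 0.24, adjusted p = 1.81e-10).

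Licensing genes had log2 differences from 1.53 for Orc1 to 4.69 for Mcm5, with a median of 2.84. Mcm6 read 5.92, 5.77 and 5.51 RPKM in WT and 61.7, 62.8 and 60.7 in KO. Mcm7 read 4.95, 4.19 and 4.44 RPKM in WT and 63.2, 65.3 and 65 in KO. These helicase subunits did not overlap between genotypes, and their levels in KO lay within a narrow band. Cdc6, a loading factor of the helicase, read 0.231 to 0.322 RPKM in WT and 7.87 to 8.23 in KO, a log2 difference of 2.83 (SE 0.12, adjusted p = 9.78e-11).

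E2f1, Rfc2 and Gins4 had the smallest day 0 differences, and each had a sizeable level in WT. Level in WT did not order the members as a whole. Gins3, with a mean of 1.12 RPKM in WT and 4.24 in KO, came next. E2f1, the transcription factor, read 14.6, 13.8 and 13.8 RPKM in WT and 22, 24 and 22.1 in KO, a log2 difference of 0.65 (SE 0.14, adjusted p = 0.00183). Rfc2, a clamp loader subunit, read 22.4, 22.3 and 22.5 RPKM in WT and 36.9, 38 and 35.7 in KO, a log2 difference of 0.69 (SE 0.20, adjusted p = 0.0111). Both genes were higher in each KO library than in any WT library. Gins4, a GINS subunit, followed with 10.2 to 10.4 RPKM in WT and 20.9 to 21 in KO. Pcna, the sliding clamp and the member with the highest RPKM, read 66.8, 62.6 and 62.9 in WT and 332, 308 and 313 in KO (log2 difference 2.29, SE 0.19, adjusted p = 1.34e-07). Reads of Pcna and Tyms may be shared with the listed pseudogenes Pcna-ps1, Pcna-ps2 and Tyms-ps, so their levels are uncertain.

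Other genes of the pathway, from comparison lists, moved at day 0 as well. Of 38 further replication genes 30 were higher in KO and 1 was lower, of 12 E2F and pocket protein genes 8 were higher, and of 20 mitosis genes all 20 were higher, with a median log2 difference of 4.07. Markers of other cells moved too: summed RPKM of neutrophil precursor markers was 46.9 to 54.9 in WT and 195 to 207 in KO. In that list Csf3r went the other way, at 32 to 33.7 in WT and 2.62 to 2.68 in KO. Summed macrophage markers were 23412 to 24332 RPKM in WT and 9335 to 9484 in KO. Most of that sum was Lyz2, at 20918 to 21762 and 7750 to 7913. Csf1r, Adgre1, Mertk and Fcgr1 were lower in KO too, whereas Cd68 was higher, at 888 to 926 against 680 to 692. The part of these markers in the difference was not tested.

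**Figure D2:**
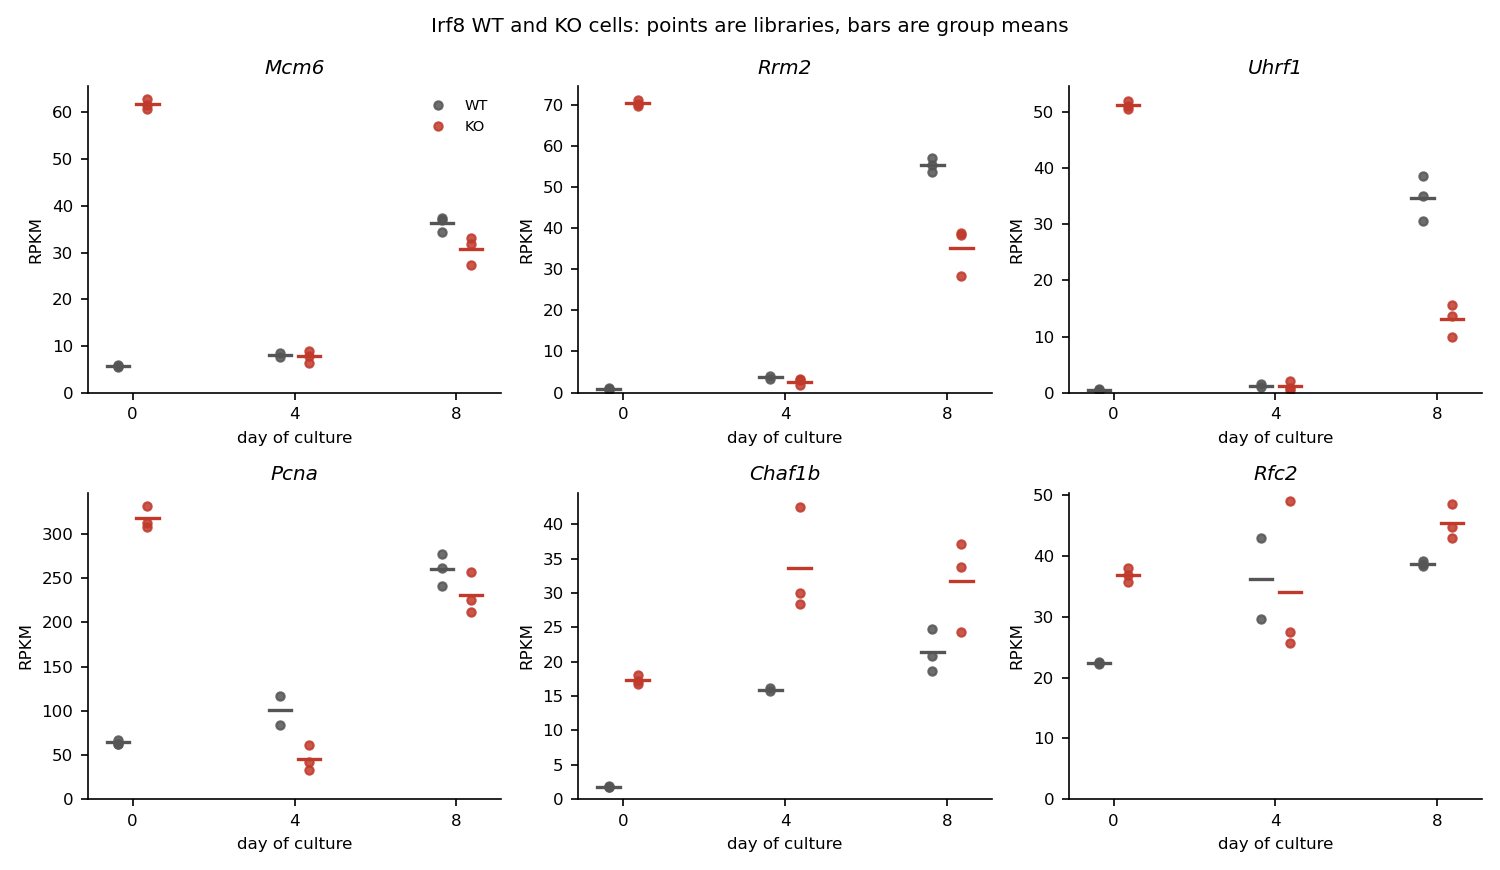
RPKM (vertical axes, from 0) of 6 members in WT and KO cells by day of culture (horizontal axes); points are libraries and bars group means. Rrm2 of KO cells falls from 69.7 to 71 RPKM at day 0 to 1.82 to 3.20 at day 4 and is at 28.3 to 38.7 at day 8, while Chaf1b does not fall.

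After 4 days with RANKL the replication genes of KO cells were down to the level of WT cells. In KO cells 40 of 42 members fell from day 0 to day 4 and 1 rose, against 44.2% and 13.6% of all genes tested; the median log2 change of the members was -2.77, and that of all genes was -0.43, or -0.04 after median-of-ratios scaling. Uhrf1 fell to 2.11, 0.791 and 0.440 RPKM, a log2 change of -4.71 (SE 0.24, adjusted p = 3.06e-10). Mcm7 fell to 3.67, 2.47 and 2.73 RPKM, and Mcm3 to 3.17, 1.83 and 2.18 from 50.1, 51.6 and 51.5 RPKM. No KO day 4 library reached the lowest day 0 library for these genes. Over the same days in KO cells the summed neutrophil precursor markers went from 195 to 207 RPKM to 8.27 to 19.9. The summed macrophage markers went from 9335 to 9484 RPKM to 4406 to 4836. Most of the macrophage sum was Lyz2, at 7750 to 7913 RPKM and then 2449 to 3423. Adgre1, Mertk and Fcgr1 fell too, Csf1r overlapped between the days, and Cd68 rose from 888 to 926 RPKM to 1096 to 1469. The part of these markers in the fall was not tested.

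Chaf1b and Rfc2 were the exceptions. Chaf1b, the middle subunit of the histone chaperone CAF-1, read 16.8, 17.2 and 18.1 RPKM in KO at day 0 and 30, 28.4 and 42.6 at day 4, a log2 rise of 0.90 (SE 0.18, adjusted p = 0.000524). Its partner Chaf1a fell over the same days, from 19.2, 21 and 19.8 RPKM to 3.15, 1.75 and 2.92. Both subunits thus went in opposite directions in the same libraries. Rfc2 read 27.5, 25.7 and 49.1 RPKM at day 4, which overlapped day 0, and its change of -0.17 (SE 0.20, adjusted p = 0.489) did not pass and turned to 0.32 under the other scaling.

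WT cells did not show this fall. From day 0 to day 4, 13 members rose and 1 fell in WT cells, against 17.6% and 25.6% of all genes tested, with a median of 0.43. Chaf1b rose most, from 1.81, 1.71 and 1.84 RPKM to 15.7 and 16.2, a log2 change of 2.61 (SE 0.20, adjusted p = 1.64e-07). Ccne2, which encodes cyclin E2, rose from 0.153 to 0.218 RPKM to 4.49 and 4.48, a log2 change of 2.20 (SE 0.21, adjusted p = 1.93e-06). Tyms, thymidylate synthase, fell from 5.37, 5.47 and 5.08 RPKM to 3.82 and 2.96, a log2 change of -0.53 (SE 0.15, adjusted p = 0.0107). The count of 13 was 6 without WT day 4 replicate 3, 7 without WT day 0 replicate 2, and 8 without either of the other day 0 libraries. The WT day 4 libraries stood apart from each other: the r between level and exon length over all genes was 0.076 in replicate 1 and -0.474 in replicate 3, and their RPKM summed to 418410 and 584689. In KO at day 4 this r was 0.201, 0.183 and -0.39, and RPKM summed to 358010, 346395 and 540595. Replicate 3 thus stood apart in the same way in both genotypes, which the fit reported here does not account for. With the length trend subtracted 14 members rose and 3 fell in WT, and 40 fell and 1 rose in KO.

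The difference between the genotypes in this change was itself tested. In the genotype by time term, 41 of 42 members had a more negative change in KO, against 21.7% of all genes tested, with a median of -3.05 on the log2 scale. Rrm2 had the largest term, -5.64 (SE 0.26, adjusted p = 4.9e-09). Rfc2 was the member that did not pass, at -0.82 (SE 0.30, adjusted p = 0.0532). Without single libraries the count was 41 to 42.

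At day 4 the genotypes lay close together. In all 2 members were higher in KO and 6 lower, against 3.06% and 10.3% of all genes tested, with a median log2 difference of -0.19. Pcna read 83.9 and 117 RPKM in WT and 42.3, 32.8 and 61.5 in KO, and was lower in each KO library, by a log2 difference of -1.15 (SE 0.22, adjusted p = 0.00174). E2f1 read 10.3 and 14 RPKM in WT and 5.67, 6.42 and 6.34 in KO (log2 difference -0.87, SE 0.16, adjusted p = 0.00159). Chaf1b and Ccne2 were the higher ones: Ccne2 read 4.49 and 4.48 RPKM in WT and 9.33, 9.13 and 5.89 in KO, a log2 difference of 0.71 (SE 0.21, adjusted p = 0.0369). Chaf1b differed by 1.01 (SE 0.20, adjusted p = 0.00257). The count of 6 lower members was 3 without KO day 4 replicate 2 and 0 in a fit of the day 4 libraries alone.

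Between day 4 and day 8 the replication genes rose in both genotypes. In WT 38 of 42 members rose, against 16.2% of all genes tested, and in KO 39 of 42, against 22.6%; the medians were 1.59 and 1.63, and no member fell in either. Uhrf1 in WT went from 1.55 and 0.955 RPKM to 38.7, 35 and 30.6, a log2 change of 3.99 (SE 0.27, adjusted p = 6.43e-08). Rrm2 in KO went from 3.20, 1.82 and 3 RPKM to 38.7, 38.2 and 28.3, a log2 change of 3.30 (SE 0.17, adjusted p = 7.96e-09). Day 8 lay wholly above day 4 in both cases.

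Few members did not pass. In WT these were Gins4 (0.05), Rfc2 (0.11), Chaf1b (0.40) and E2f1 (0.43), and in KO Rfc2 (0.46), Chaf1b (-0.08) and Ccne2 (-0.43), each a log2 change; Gins4 and Rfc2 in WT were -0.10 and -0.04 under the other scaling. All 20 mitosis genes rose in both genotypes, with medians of 2.73 in WT and 2.47 in KO. Stromal marker sums at day 8 were 75.2 to 498 RPKM in WT and 1.87 to 13.3 in KO, and their part in the WT values was not tested.

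At day 8 the sign of the genotype difference was opposite to that of day 0 for most members that passed. In all 20 members were lower in KO and 1 was higher, against 22.6% and 8.62% of all genes tested, so the share of lower members was 20 of 42. The median log2 difference was -0.41, with -0.18 over all genes. Uhrf1 read 38.7, 35 and 30.6 RPKM in WT and 13.7, 15.7 and 9.89 in KO, a log2 difference of -1.36 (SE 0.24, adjusted p = 0.00127). Pole, the catalytic subunit of the leading-strand polymerase, read 3.89, 3.85 and 2.97 RPKM in WT and 1.09, 1.31 and 0.822 in KO (log2 difference -1.14, SE 0.13, adjusted p = 6.55e-05). Neither gene overlapped between genotypes.

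Licensing genes made up 7 of the 20. Mcm2 read 20.6, 20.8 and 17.7 RPKM in WT and 6.90, 10.1 and 9.42 in KO, and was lower in each KO library (log2 difference -1.09, SE 0.18, adjusted p = 0.000863). Mcm6 read 37, 37.4 and 34.5 RPKM in WT and 33.2, 31.9 and 27.4 in KO, and its log2 difference of -0.23 (SE 0.13, adjusted p = 0.189) did not pass. Subunits of the same helicase ring thus differed by unequal amounts. Pcna (241, 277 and 262 RPKM against 257, 225 and 212) overlapped between genotypes. Chaf1b was the member that was higher in KO, at 24.3, 37.2 and 33.8 RPKM against 20.9, 24.8 and 18.6, with a log2 difference of 0.53 (SE 0.18, adjusted p = 0.0342) although the groups overlapped.

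Longer members tended to have lower differences at day 8. Across the 42 members, Pearson's r between the log2 difference and log2 exon length was -0.56 at day 8 and 0.15 at day 0, given as a description over genes that share libraries. The r between level and exon length over all genes was 0.032 to 0.063 in the WT day 8 libraries and -0.105 to -0.409 in the KO day 8 libraries. With the length trend of all genes subtracted, 20 members were still lower and 1 higher. The count of lower members was 12 without WT day 8 replicate 1 or without replicate 2, and 13 without KO day 8 replicate 3.

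In the genotype by time term from day 4 to day 8, 3 members had a more positive and 6 a more negative change in KO, against 8.17% and 7.36% of all genes tested. Gins4 (1.22, SE 0.31, adjusted p = 0.0207), Gins1 (1.03, SE 0.33, adjusted p = 0.0461) and Pcna (0.98, SE 0.29, adjusted p = 0.037) were the positive ones. The most negative was Ccne2, at -1.35 (SE 0.28, adjusted p = 0.00828). The 6 became 2 without WT day 4 replicate 3, 3 without KO day 4 replicate 1 or WT day 8 replicate 1 or 2, and 0 in a fit of these 4 groups alone. Over the members, r of this term with log2 exon length was -0.62, and with the length trend subtracted 5 were negative and 0 positive.

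**Figure D3:**
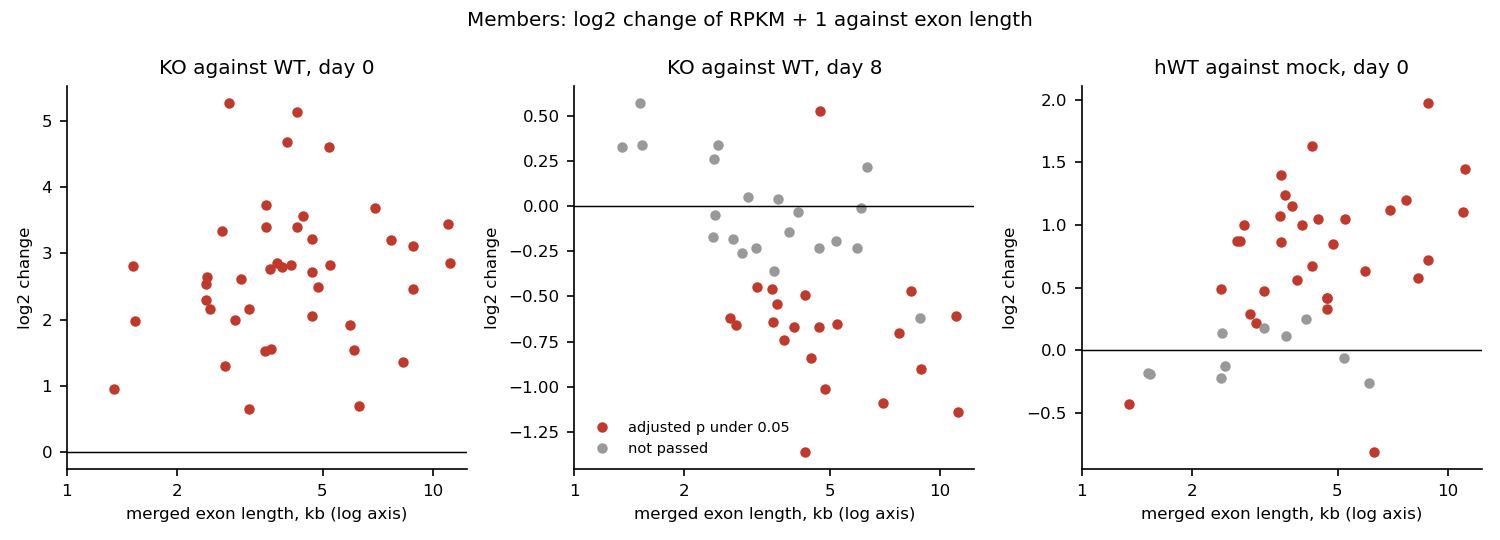
Log2 change of RPKM + 1 (vertical axes) of the members against merged exon length in kb (horizontal log axes) for 3 comparisons; red points passed an adjusted p of 0.05. At day 8 longer members tend to have lower KO against WT values (r = -0.56). At day 0 longer members tend to have higher hIRF8WT against mock values (r = 0.45).

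Cells carrying human IRF8 in the second experiment had more of most replication transcripts than mock cells at day 0. With hIRF8WT 30 members were higher and 2 lower, with hIRF8G388S 29 and 6, and with hIRF8379-389 29 and 4, and the 3 comparisons share the mock libraries. All genes were higher in 48.1%, 49.3% and 49.6% of cases and lower in 26.6%, 23.8% and 23.6%, of 11374 genes tested. The members' medians were 0.61, 0.59 and 0.61 on the log2 scale, beside 0.24, 0.28 and 0.27 for all genes, which became 0.04 to 0.05 under median-of-ratios scaling. Under that scaling the members split into 24 higher and 7 lower, 22 and 8, and 22 and 6. The shares of all genes under that scaling are not given, so whether these counts exceed them cannot be said.

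Uhrf1 read 10.8, 9.79 and 8.93 RPKM in mock, 34.4, 27 and 36.8 with hIRF8WT, 31, 32.2 and 31.2 with hIRF8G388S, and 29.3, 28.4 and 26.6 with hIRF8379-389. All construct libraries lay above all mock libraries, with log2 differences of 1.63, 1.58 and 1.43 (SE 0.09 each, adjusted p = 7.75e-14, 1.34e-13 and 1.04e-12). Pola1, the catalytic subunit of the polymerase that starts DNA chains, read 0.903, 1.89 and 2.11 RPKM in mock and 6.14 to 12.9 in the 9 construct libraries, with log2 differences of 1.97, 1.58 and 1.87 (SE 0.18 each). Mcm7 read 19.1, 22.4 and 16.4 RPKM in mock and 35.1 to 44.3 with the constructs, and Rrm2 read 31.8, 29 and 26.3 in mock and 50.2 to 59.4. No construct library of these genes overlapped mock.

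A few clamp and helicase genes went the other way. Rfc2 read 47.5, 55.6 and 36.2 RPKM in mock and 19.8 to 32.1 with the constructs, with log2 differences of -0.81, -0.55 and -0.77 (SE 0.14 each, adjusted p = 1.52e-05, 0.00131 and 3.58e-05). Gins4 read 28.5, 24.2 and 29.4 RPKM in mock and 15.7 to 21.4 with the constructs, with log2 differences of -0.43, -0.59 and -0.55 (SE 0.10 each). Both were lower in every construct library. With the length trend subtracted, Gins4 turned to 0.22 for hIRF8WT and to 0.01 for hIRF8379-389. Tyms was lower with hIRF8G388S (-0.56, SE 0.16, adjusted p = 0.00271) and hIRF8379-389 (-0.47, SE 0.16, adjusted p = 0.0102), Gins1 with both of these (-0.34 and -0.31), and Orc6 (-0.41) and Dut (-0.33) with hIRF8G388S. Gins1 turned to 0.18 and 0.21 with the length trend subtracted.

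Of the comparison lists at day 0, all 12 E2F and pocket protein genes were higher with each construct, and 17 to 18 of the 20 mitosis genes were. Of all genes tested 48.1% to 49.6% were higher in these comparisons. Counts of these lists under median-of-ratios scaling are not given. The level of all genes rose with exon length in the hIRF8WT day 0 libraries (r 0.143 to 0.249) and fell with it in the mock day 0 libraries (r -0.304 to -0.422). With the length trend subtracted 33, 31 and 31 members were higher and 2 lower in each. Summed macrophage markers were 20852 to 23439 RPKM in mock and 5387 to 6819 with the constructs. Most of that sum was Lyz2, at 19649 to 22472 and 4556 to 5605. Csf1r (110 to 137 against 290 to 449) and Fcgr1 (11.3 to 14.5 against 54 to 68.1) were higher with the constructs. Adgre1 read 112 to 117 RPKM in mock and 78.9 to 112 with the constructs, and Cd68 and Mertk overlapped. Summed neutrophil precursor markers were 973 to 1324 RPKM in mock and 276 to 516 with the constructs. The part of these markers in the differences was not tested.

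The replication genes were also higher with the constructs at the later days. At day 4 there were 25 higher and 2 lower members with hIRF8WT, 31 and 0 with hIRF8G388S, and 24 and 0 with hIRF8379-389, against 23.8%, 13.6% and 13.3% of all genes higher and 23.7% lower with hIRF8WT. At day 8 there were 26 higher, 23 higher, and 23 higher with 1 lower (Rfc2, -0.48, SE 0.16, adjusted p = 0.0147), against 14.6%, 24.4% and 25.4% of all genes higher and 24.6% lower with hIRF8379-389. The medians ran from 0.34 to 0.49 at day 4 and from 0.38 to 0.53 at day 8, beside -0.05 to 0.01 for all genes. Summed osteoclast markers were 7587 to 7988 RPKM in mock and 4836 to 6536 with the constructs at day 4, and 6446 to 8167 against 2381 to 3452 at day 8. Summed macrophage markers were 10902 to 12161 RPKM against 6460 to 9415 at day 4, and 9485 to 11536 against 4206 to 6156 at day 8. Most of that sum was Lyz2, at 9405 to 10623 against 5664 to 8334 at day 4. Adgre1, Cd68 and Mertk were lower with the constructs at both days, whereas Csf1r and Fcgr1 were higher. At day 4 Csf1r read 261 to 278 RPKM against 289 to 322, and Fcgr1 0.846 to 1.08 against 17.2 to 24.4. The part of the osteoclast and macrophage markers in the differences was not tested.

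Gins2 led the rise at day 4 with both altered constructs. It read 18, 17 and 13.7 RPKM in mock, 32.6, 34.7 and 38.7 with hIRF8G388S, and 34.7, 30.4 and 34.6 with hIRF8379-389, with log2 differences of 1.08 and 1.00 (SE 0.16 each, adjusted p = 7.38e-06 and 2.16e-05). Pcna read 173, 155 and 143 RPKM in mock and 239 to 282 with the constructs, with log2 differences of 0.66 to 0.79 (SE 0.10 each). No construct library overlapped mock for either gene. At day 8 Pole read 2.52 and 2.86 RPKM in mock, 6.32 and 5.97 with hIRF8WT, 8.07 and 8.17 with hIRF8G388S, and 8.48, 8.88 and 8.42 with hIRF8379-389. Its log2 differences of 0.95, 1.31 and 1.38 were the largest of the members at that day (SE 0.12, 0.12 and 0.11, adjusted p = 3.96e-07, 1.46e-09 and 7.67e-11).

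Rfc2 and Cdt1 were lower with hIRF8WT at day 4. Cdt1, the licensing factor, read 37.7, 32 and 32.2 RPKM in mock and 20.9, 20.7 and 22.4 with hIRF8WT, without overlap, and its log2 difference was -0.64 (SE 0.17, adjusted p = 0.00295). Rfc2 differed by -0.39 (SE 0.14, adjusted p = 0.0293). The 3 hIRF8WT day 4 libraries carry a column prefix of their own in the table, so what that prefix stands for and the construct cannot be told apart at day 4.

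**Figure D4:**
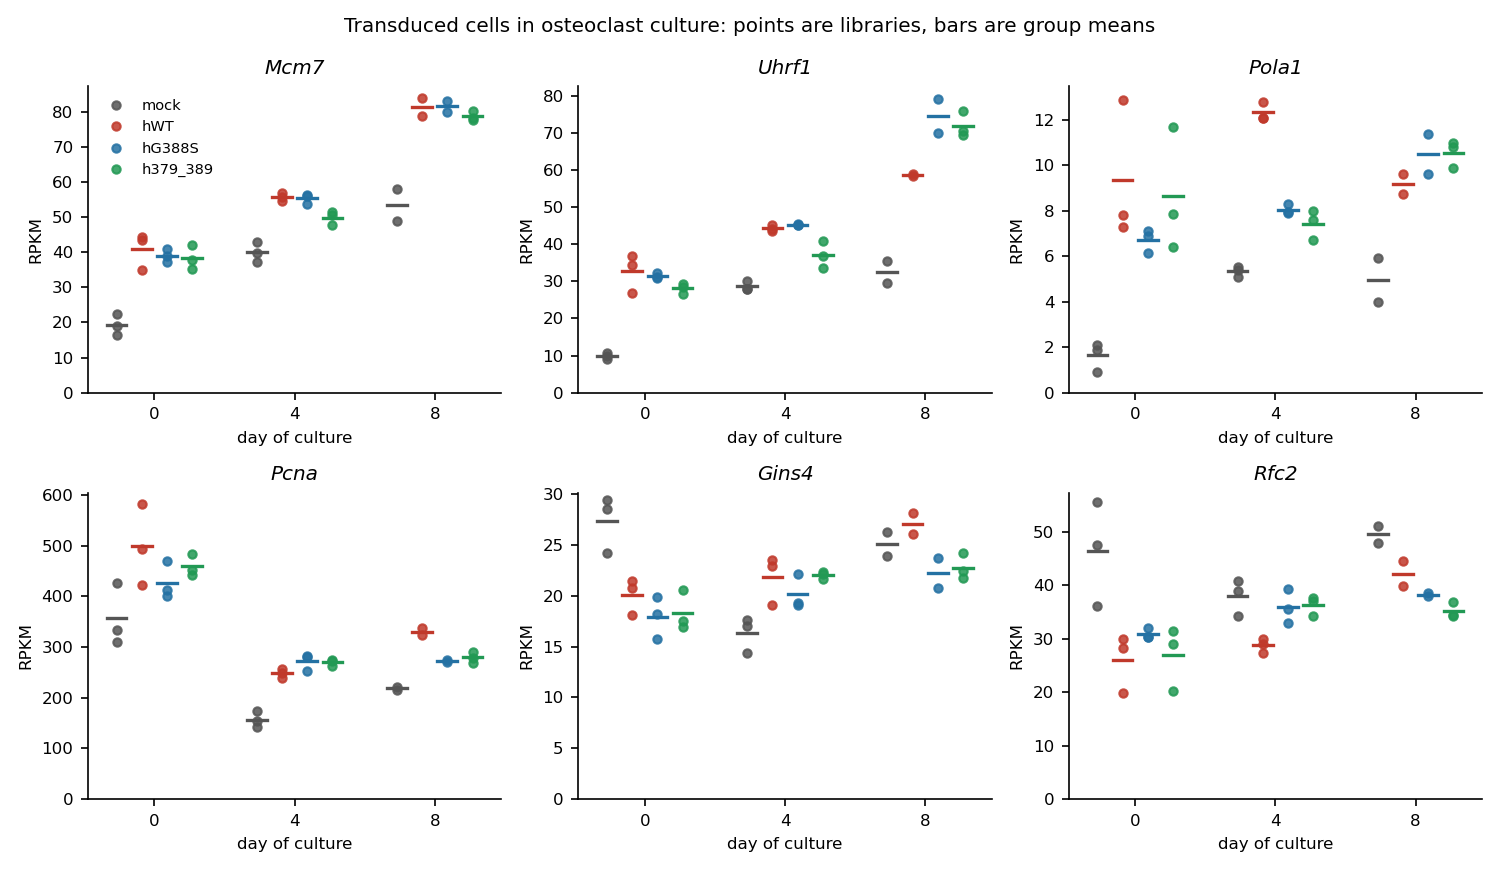
RPKM (vertical axes, from 0) of 6 members by day of culture (horizontal axes) in mock cells and with hIRF8WT (hWT), hIRF8G388S (hG388S) and hIRF8379-389 (h379_389); points are libraries and bars group means. Mcm7 and Uhrf1 lie above mock with each construct at each day, whereas Rfc2 and Gins4 lie below mock at day 0.

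The altered constructs were compared with hIRF8WT directly. At day 0 none of the 42 members passed by limma with Benjamini-Hochberg adjustment for either construct, against 0.765% of all genes for hIRF8G388S and 0.0176% for hIRF8379-389. At an unadjusted p under 0.05 there were 9 members for hIRF8G388S and 4 for hIRF8379-389. The log2 differences ran from -0.39 (Pola1) to 0.40 (Cdt1) for hIRF8G388S and from -0.30 (Pole) to 0.20 (Cdt1) for hIRF8379-389, with SE of 0.07 to 0.22. Without hIRF8WT day 0 replicate 3, 2 members were higher and 5 lower with hIRF8G388S.

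At day 4 the counts of members that differed were near or below the shares of all genes. With hIRF8G388S 6 were higher and 3 lower than with hIRF8WT, against 13.7% and 14% of all genes, and with hIRF8379-389 3 were higher and 8 lower, against 12.8% and 19.4%. Pola1 read 12.8, 12.1 and 12.1 RPKM with hIRF8WT, 7.93, 8.29 and 7.92 with hIRF8G388S, and 7.58, 8 and 6.74 with hIRF8379-389. It was lower in every library of the altered constructs, by log2 differences of -0.56 and -0.66 (SE 0.18 each, adjusted p = 0.0243 and 0.00709). Cdt1 was higher, at 36.5, 37.9 and 40.8 RPKM and 33.7, 28.7 and 27 RPKM against 20.9, 20.7 and 22.4, by 0.82 and 0.46 (SE 0.17 each, adjusted p = 0.00134 and 0.0398). Pole2 (0.51, SE 0.12, adjusted p = 0.00219) and Dut (0.46, SE 0.11, adjusted p = 0.00202) were also higher with hIRF8379-389.

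Lig1, the ligase that seals lagging-strand fragments, read 41.1, 38.9 and 38.9 RPKM with hIRF8WT and 30.7, 31.2 and 31.1 with hIRF8G388S, without overlap, a log2 difference of -0.34 (SE 0.07, adjusted p = 0.00105). Chaf1a differed by -0.31 (SE 0.10, adjusted p = 0.0238). The 6 higher members were 3 without hIRF8WT day 4 replicate 1, and the 8 lower ones were 4 without the same library and 5 without hIRF8379-389 day 4 replicate 2. In fits of the groups compared alone, 16 were higher with hIRF8G388S and 15 lower with hIRF8379-389. All of these day 4 values share the separate prefix of the hIRF8WT libraries.

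Within the second experiment the replication genes did not fall with RANKL as they did in KO cells. In mock cells 25 members rose and 6 fell from day 0 to day 4, against 50.9% and 22.6% of all genes tested. The median was 0.41 beside 0.31 for all genes. Under median-of-ratios scaling, for which the shares of all genes are not given, 18 were higher and 14 lower. In hIRF8WT cells 11 rose and 3 fell, against 26% and 16.4%, which was 6 and 3 under that scaling. From day 4 to day 8, 28 rose in mock and 31 in hIRF8WT cells and none fell, against 14.7% and 21.3% of all genes. This experiment and the first were not fitted together, and their difference was not tested.

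Pcna fell by day 4 in both. In mock it read 310, 334 and 426 RPKM at day 0 and 173, 155 and 143 at day 4, a log2 change of -1.17 (SE 0.10, adjusted p = 2.15e-10). With hIRF8WT it read 494, 583 and 423 RPKM at day 0 and 239, 249 and 257 at day 4, also a fall (SE of the log2 change 0.10, adjusted p = 1.2e-08). The days did not overlap in either group. Gins1 (-0.90), Gins2 (-0.74), Gins4 (-0.71), Tyms (-0.66) and Rfc3 (-0.21) also fell in mock, so 3 of the 4 GINS subunits went down while Mcm2 to Mcm7 rose. Cdt1 (-0.55) and Prim1 (-0.33) fell with hIRF8WT.

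Among the rises in mock, Uhrf1 went from 10.8, 9.79 and 8.93 RPKM to 30.1, 27.9 and 27.9, a log2 change of 1.45 (SE 0.09, adjusted p = 3.91e-13). Gins1 rose most from day 4 to day 8 in mock, by 0.75 (SE 0.11, adjusted p = 2.84e-05), and Dut, which removes dUTP, rose most with hIRF8WT, from 12, 11.2 and 10.7 RPKM to 30.6 and 32.4, by 1.41 (SE 0.12, adjusted p = 1.33e-09). Chaf1a rose most from day 0 to day 4 with hIRF8WT, by 0.69 (SE 0.10, adjusted p = 3.15e-06). Over the members, r of the change with log2 exon length was 0.51 for mock from day 0 to day 4 and -0.54 from day 4 to day 8. The 11 rises with hIRF8WT were 7 without its day 4 replicate 1, 6 without replicate 3 and 5 in a fit of these groups alone. The 28 rises in mock were 16 without mock day 8 replicate 2, and the 31 with hIRF8WT were 20 without its day 8 replicate 2.

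In untreated macrophages replication transcripts lay between the day 0 levels of WT and KO cells. The members' mean of log2(RPKM + 1) per library was 2.15 to 2.85 in untreated macrophages. It was 1.86 to 1.92 in WT and 4.57 to 4.59 in KO cells at day 0, 1.83 to 2.34 in both at day 4, and 3.56 to 3.68 in mock cells at day 0 of osteoclast culture. The experiments were not fitted together, and these differences were not tested. Of the 42 members 39 reached the level needed for testing, 1 RPKM in 2 libraries. Orc1, Cdc6 and Ccne2 did not, with Cdc6 at 0 to 0.852 RPKM and Orc1 at 0 to 1.70.

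At 4 h of LPS after IFNg nearly all of the tested members read lower than with IFNg alone. The LPS libraries compared here carry another column prefix than their IFNg libraries, so prefix and LPS cannot be told apart. In mock macrophages 34 of 39 members were lower and 1 higher at 4 h than with IFNg alone, against 64% and 12.3% of 11237 genes tested, and at 8 h 30 were lower and 1 higher, against 50.8% and 15.1%. Most genes in the table fell too: the members' medians were -1.13 and -0.86, beside -0.69 and -0.42 for all genes, which became -0.18 and -0.14 under median-of-ratios scaling. With hIRF8WT 30 were lower and 1 higher at 8 h, against 55.3% and 15.2%, with a median of -1.16 beside -0.50 for all genes.

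Rfc2 fell most. In mock macrophages it read 33 and 28.3 RPKM with IFNg, 19.7 and 21.1 after 1 h of LPS, 3.43 and 3.31 after 4 h and 4.74 and 5.26 after 8 h. Its log2 changes from IFNg were -2.85 at 4 h and -2.40 at 8 h (SE 0.11 each, adjusted p = 1.75e-16 and 5.81e-15), and the libraries of 4 and 8 h lay far below the others. All 8 licensing genes tested fell at 4 h, by a median log2 change of -1.70. Mcm2 with hIRF8WT read 4.52 and 4.07 RPKM with IFNg and 0.225 and 0.312 after 8 h, a log2 change of -2.06 (SE 0.15, adjusted p = 1.34e-11). Mcm7 in mock read 4.45 and 4.68 RPKM with IFNg and 0.677 and 0.523 after 4 h.

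Ccne1, which encodes cyclin E1, was higher with IFNg than untreated, and higher at each time of LPS than with IFNg. In mock macrophages it read 0.642 and 1.63 RPKM untreated, 7.59 and 7.31 with IFNg, 12.5 and 10 after 1 h of LPS, 26.7 and 25.1 after 4 h and 16.2 and 14.9 after 8 h. It was lowest untreated and highest at 4 h, without overlap between neighbouring steps. Its log2 change with IFNg was 2.02 (SE 0.16, adjusted p = 3.9e-10), and from IFNg to 1, 4 and 8 h of LPS it changed by 0.53, 1.67 and 0.97 (adjusted p = 0.018, 2.14e-09 and 1.39e-05). In hIRF8WT macrophages it rose by 1.22 from IFNg to 8 h (SE 0.16, adjusted p = 4.47e-07).

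Rfc3, another clamp loader subunit, also read higher at 4 h. It read 10.4 and 9.55 RPKM with IFNg and 18.9 and 17.6 after 4 h in mock, and 27.6 to 30.5 after 4 h with the constructs. The mock and construct libraries of 4 h carry different column prefixes. Its log2 change of 0.81 in mock had a wide error (SE 0.43, adjusted p = 0.0927) and did not pass, in a fit that includes the shallow library, where Rfc3, Tyms and Tk1 are listed at 0. Pola2 (-0.34), Tyms (-0.01) and Tk1 (-0.35) did not pass at 4 h either and turned to 0.36, 0.69 and 0.07 under the other scaling.

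At 1 h of LPS 7 members were lower and 3 higher in mock, against 18.7% and 7.63% of all genes. Under median-of-ratios scaling, for which the shares are not given, these were 5 and 4. Gins3 read 0.884 and 0.865 RPKM with IFNg and 0.221 and 0.157 after 1 h, a log2 change of -0.66 (SE 0.24, adjusted p = 0.0419). Rrm2 (0.50, SE 0.17, adjusted p = 0.0317) and Dut (0.32, SE 0.11, adjusted p = 0.0297) were higher beside Ccne1. The 7 became 3 or 4 without any of the 4 libraries compared, that is IFNg replicate 1 (4) or 2 (3) and 1 h replicate 1 (3) or 2 (4). In mock the IFNg libraries carry another column prefix than those of each LPS time. With hIRF8WT the IFNg libraries likewise carry another prefix than those of 8 h. In these comparisons with IFNg, for mock and hIRF8WT alike, prefix and LPS cannot be told apart. The mock libraries of 1 and 4 h share a prefix. Their members' mean of log2(RPKM + 1) was 2.18 and 2.16 at 1 h and 1.28 and 1.27 at 4 h, a step that was not tested.

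**Figure D5:**
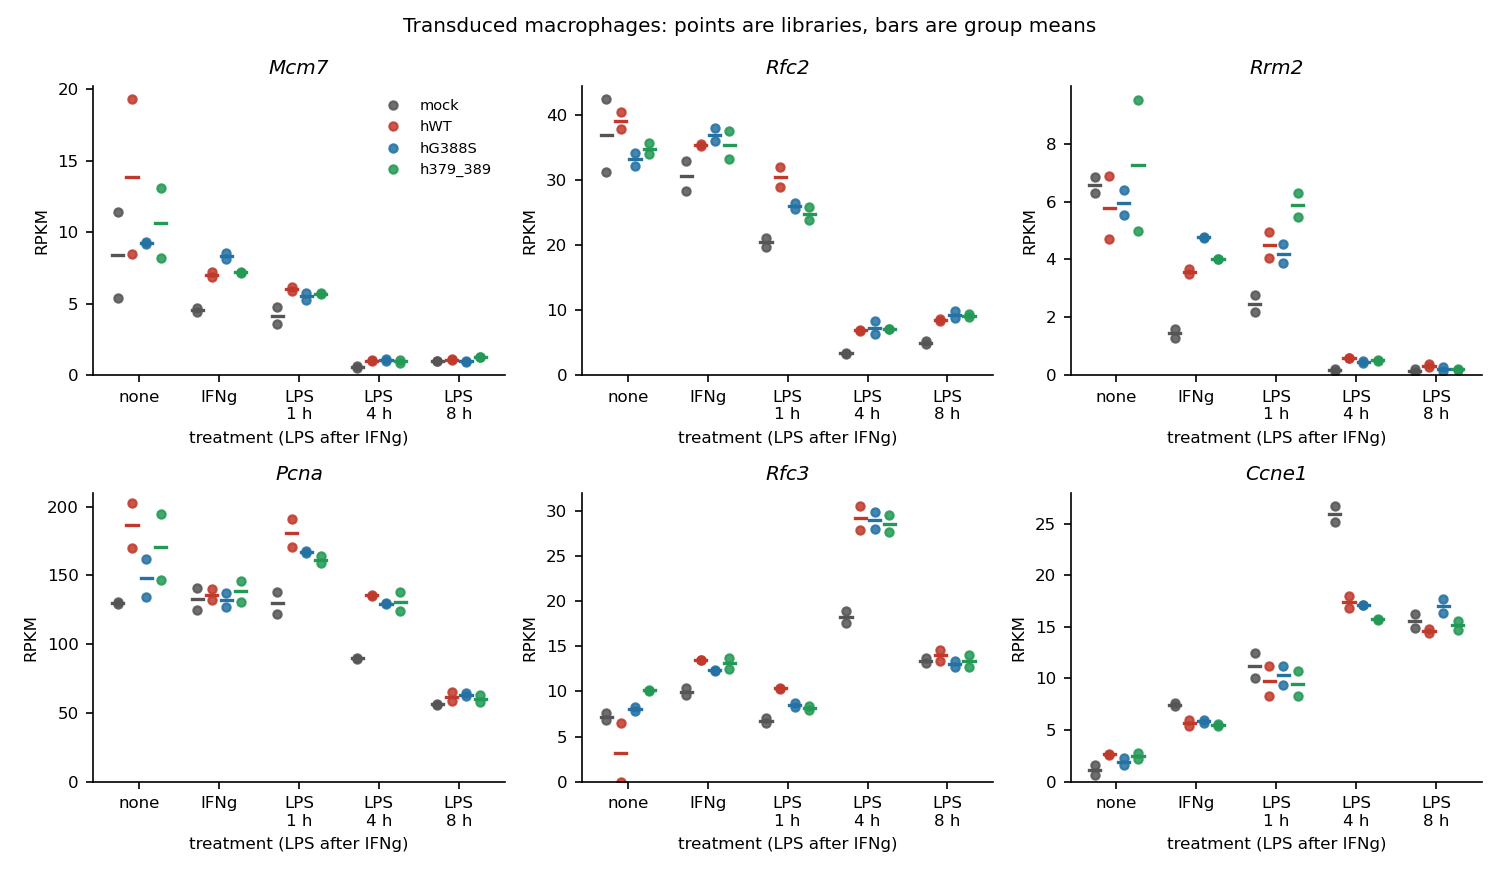
RPKM (vertical axes, from 0) of 6 members in macrophages by treatment (horizontal axes, LPS given after IFNg) for mock, hIRF8WT (hWT), hIRF8G388S (hG388S) and hIRF8379-389 (h379_389); points are libraries and bars group means. Rfc2 falls to 3.31 and 3.43 RPKM in mock at 4 h of LPS, when Ccne1 stands at 25.1 and 26.7.

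With IFNg alone the members moved no more often than all genes did. In mock macrophages 15 were lower and 3 higher than untreated, against 44.2% and 18.9% of all genes tested. The median was -0.27 for the members and for all genes alike. Under median-of-ratios scaling, for which the shares are not given, 10 were lower and 5 higher. Tk1, thymidine kinase, read 6.88 and 11.9 RPKM untreated and 1.29 and 1.5 with IFNg, without overlap, a log2 change of -2.08 (SE 0.53, adjusted p = 0.00152). Rfc5 rose from 6.70 and 5.48 RPKM to 14.8 and 13.5, by 1.10 (SE 0.12, adjusted p = 3.43e-08), and Cdt1 rose by 0.27 (SE 0.11, adjusted p = 0.0363).

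With hIRF8WT 10 members were higher and 10 lower after IFNg, against 20.4% and 30.7% of all genes. Prim1, the primase catalytic subunit, read 6.69 and 2.79 RPKM untreated and 1.83 and 1.77 with IFNg, a log2 change of -0.95 (SE 0.22, adjusted p = 0.00132). The 6.69 comes from the shallow library, and without it the change was -0.44 (adjusted p = 0.0603). The largest rise, Rfc3 at 2.41 (SE 0.43, adjusted p = 8.4e-05), rests on the shallow library, in which it is listed at 0; without that library it was 0.96. Mcm3 (-0.39), Mcm6 (-0.63), Mcm7 (-0.79), Cdt1 (-0.29), Pcna (-0.45), Lig1 (-0.45), Rrm2 (-0.55), Dut (-0.40) and Chaf1a (-0.73) were lower. Without the shallow library Mcm7 (-0.24), Cdt1 (-0.05) and Chaf1a (-0.27) no longer passed. The 10 higher members were 16 without untreated replicate 2, 6 without IFNg replicate 1 or 2, 7 without the shallow library and 0 in a fit of these 4 libraries alone.

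The response to IFNg was compared between hIRF8WT and mock. In this term 12 members were more positive with hIRF8WT and 3 more negative, against 17% and 8.54% of all genes tested. Ccne1 was among the negative ones, at -1.16 (SE 0.23, adjusted p = 0.00169), with Cdt1 at -0.56 (SE 0.16, adjusted p = 0.0148) and Pcna at -0.48 (SE 0.16, adjusted p = 0.0315). Tk1 had the largest positive term, 2.29 (SE 0.74, adjusted p = 0.0291), which was 0.63 with an adjusted p of 0.19 without the shallow library. The 12 became 8 without that library, 6 without mock IFNg replicate 1 or 2 or hIRF8WT IFNg replicate 1 or 2, and 0 in a fit of these 4 groups alone.

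Averaged over the 5 conditions, members lay slightly higher with the constructs than in mock macrophages. At 4 h of LPS all construct libraries carry another column prefix than mock, and with IFNg those of hIRF8379-389 do. In these conditions prefix and construct cannot be told apart. With each construct 14 of 39 members were higher, against 17.8% of all genes for hIRF8WT, 21.1% for hIRF8G388S and 20.6% for hIRF8379-389. None, 3 and 4 were lower in this order, against 14.8% and 17.7% for the last 2, and hIRF8WT had 2 lower under median-of-ratios scaling. Among members that passed, Rfc2 led with hIRF8WT, by 0.47 (SE 0.05, adjusted p = 7.64e-08). With the other constructs Rrm1, the large ribonucleotide reductase subunit, led those that passed, by 0.47 and 0.56 (SE 0.05 each, adjusted p = 1.7e-08 and 9e-10). Gins2 differed by 0.50 with hIRF8G388S and did not pass. Mcm6 (-0.21 in both), Cdt1 (-0.17 and -0.18) and Chaf1b (-0.16 and -0.17) were lower with both altered constructs, and Pola2 (-0.26) with hIRF8379-389. Without the shallow library 22 members were higher and 2 lower with hIRF8WT, and 24 were higher and 5 lower with hIRF8379-389.

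Across all 38 groups most members followed each other closely. Pearson's r of a member with the mean of the other 41 on log2(RPKM + 1) group means ran up to 0.993 for Rrm1, as a description over groups that share experiments. The members least like the rest were Ccne1 (0.197), Rfc3 (0.342), E2f1 (0.526) and Rfc2 (0.699). Of 12378 genes, the other genes most like the members' mean were Cdca5 (0.996), Tacc3 (0.995), Kifc1 and Ncapd2 (0.992 each) and Ccna2 (0.991). These names were taken by rank of r alone.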

How the data were processed

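Libraries of total RNA were prepared with Illumina protocols, and the authors deposited 1 table of RPKM per gene and library. TopHat mapping on mm10 and RPKM from Partek are recorded per the file headers. The submitters' processing notes name, without roles, TopHat2 (2.1.0), bcl2fastq (2.17.1), CASAVA (1.8.4), deepTools and Partek. The sources used here give neither the annotation, nor the strand setting, nor the handling of multiply mapping reads, all of which could move the level of a gene with close copies. RPKM are not counts, so no count test was run. Libraries were grouped by their titles. Each experiment was fitted alone with limma 3.58.1 (R 4.3.3; lmFit, contrasts and eBayes with trend, all groups of the experiment sharing the spread) on log2(RPKM + 1), over genes at 1 RPKM or more in at least 2 libraries, with Benjamini-Hochberg adjustment over all of them and a threshold of 0.05. All adjusted p-values come from limma. The steps were tested on data made with known changes.

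Values per library were given for the members of highest mean RPKM in each role group (2, or 1 for groups of 3). Further named, per comparison, were the largest rise and fall past the threshold, each member that passed against the majority, and, where at least 80% of tested members passed, those that did not. Any other member named was chosen after its values were seen. The members and the comparison lists were chosen with earlier results of these data known. Alternatives were median-of-ratios scaling (factors 0.664 to 1.37), a pseudocount of 0.1, no filter, fits of the compared groups alone, a replicate block, leaving out each library or the shallowest, and, chosen after seeing the data, subtraction of the gene length trend. Shares of all genes are given for the fit described above only, so none stands beside a count under an alternative. Promoters are from RefSeq tables.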

Additional observations from a re-analysis of the deposited data

Results flagged for a closer look

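The change from day 0 to day 4 differed between KO and WT cells for 41 of the 42 members by the genotype by time term of limma (Benjamini-Hochberg adjusted), all with the more negative change in KO. The change from day 4 to day 8 differed for 9 members, 3 positive and 6 negative. The response of macrophages to IFNg differed between hIRF8WT and mock for 15 members, 12 positive and 3 negative, a comparison that includes the library of 0.218 in units of 1e6 alignments.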

How the results depend on the processing

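The counts of members higher or lower in 36 comparisons were recomputed under each alternative. With the pseudocount of 0.1, no filter, the replicate block and the length trend subtracted, all 36 counts stayed within 1.5 times. With the replicate block the count for hIRF8WT macrophages with IFNg was 8 in place of 10. The median correlation of deviations between same-numbered libraries was -0.01 in each experiment. In the first experiment it ran from -0.35 to 0.9, and 13 of 40 pairs were above 0.1, so some same-numbered libraries deviated together. The block takes up only what same-numbered libraries share over all groups. Median-of-ratios scaling took hIRF8WT day 4 against day 0 from 11 to 6. In fits of the compared groups alone, KO against WT at day 4 and its term from day 4 to day 8, hIRF8WT macrophages with IFNg and the IFNg term each went to 0, hIRF8WT day 4 against day 0 to 5, and hIRF8G388S and hIRF8379-389 against hIRF8WT at day 4 to 16 and 15; these fits hold fewer libraries. Without the shallowest library the means of 5 conditions went to 22 for hIRF8WT and 24 for hIRF8379-389.

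With single libraries left out, an arm left with 1 library being taken to vary like the other groups, the counts ran from 3 to 9 for KO against WT at day 4, 12 to 19 at day 8, 6 to 15 for WT day 4 against day 0, 2 to 9 for the term from day 4 to day 8, 0 to 2 and 3 to 5 for hIRF8G388S against hIRF8WT at days 0 and 4, 4 to 6 for hIRF8379-389 against hIRF8WT at day 4, 16 to 27 for mock day 8 against day 4, 6 to 14 and 20 to 29 for hIRF8WT at day 4 against 0 and 8 against 4, 3 to 4 for 1 h of LPS in mock, 6 to 16 for hIRF8WT macrophages with IFNg, 14 to 22 for the hIRF8WT mean of 5 conditions and 6 to 17 for the IFNg term.

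Some values changed sign, among them day 0 values of Gins4 and Gins1 with the constructs that had passed the threshold. Under median-of-ratios scaling these were Gins4 (-0.10) and Rfc2 (-0.04) in WT from day 4 to day 8, Rfc2 in KO to day 4 (0.32), Prim1 (-0.06), Pole2 (-0.14), Fen1 (-0.03), Tk1 (-0.20) and E2f1 (-0.09) for hIRF8G388S at day 0, and Pola2 (0.36), Tyms (0.69) and Tk1 (0.07) at 4 h of LPS. With the length trend subtracted, an alternative chosen after seeing the data, these were Gins4 (0.22) for hIRF8WT, Gins1 (0.18), Rfc3 (0.02) and Rfc4 (0.26) for hIRF8G388S, and Gins1 (0.21) and Gins4 (0.01) for hIRF8379-389, all at day 0. With 1 library left out, values ran from -0.19 to 0.29 for Gins4 (-0.01 also negative) and -0.15 to 0.37 for Rfc2 in WT from day 4 to day 8, from -0.49 to 0.02 for Rfc4 and -0.27 to 0.28 for Tk1 for hIRF8G388S at day 0, and from -0.11 to 0.09 (0.01 also positive) for Tyms at 4 h of LPS, and Chaf1b in KO to day 8 reached 0.10. The cause was not tested. Low levels limit what can be said of Orc1, Cdc6 and Ccne2 in macrophages, which were below the filter.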
